A study of Homo sapiens with 6 samples.

Results

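The subunit genes of RNA polymerases I, II and III (Pol I, Pol II and Pol III) were followed in 22RV1 cells, a human castration-resistant prostate cancer (CRPC) cell line, treated with DMSO or with 10 nM bruceantin (BCT), a plant quassinoid, for 24 h. Members were taken by symbol from the deposited expression table, as the genes whose symbols start with POLR1, POLR2 or POLR3 and a letter, together with CD3EAP, TWISTNB, ZNRD1 and CRCP, which are older symbols or names of Pol I and Pol III subunits. This gave 34 of the 26255 listed genes after 1 pseudogene, POLR2J4, was left out, and 33 of them are described and counted here. By textbook membership 6 belonged to Pol I only, 10 to Pol II only, 10 to Pol III only, 2 to Pol I and Pol III, and 5 to all 3 enzymes. Each group had 3 samples (DMSO replicates 1 to 3, BCT replicates 1 to 3) of cells grown in medium with fetal bovine serum, a single line at a single dose and time. Nothing in the labels says whether the replicates came from separate cultures, so the p-values measure only the spread between these samples.

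Pol I transcribes the precursor of the large ribosomal RNAs, Pol II the messenger RNAs and Pol III the transfer RNAs, the smallest ribosomal RNA and other short RNAs. The 3 enzymes are built on one plan. Each has a pair of large subunits that form the active site, a small platform on which that pair assembles, a zinc-ribbon subunit that helps cleave the transcript, and a stalk that holds the leaving RNA. Pol I and Pol III also keep bound to them subunits that resemble the separate Pol II initiation factors TFIIF and TFIIE.

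Expression was read as FPKM, fragments scaled to transcript length and sequencing depth, a scale per length on which levels of different genes may be set side by side. Summed FPKM ranged from 1169650 to 1572320 over the DMSO samples and from 757534 to 799838 over the BCT samples. A single small RNA gene, MIR6087, made up 43.5% to 55.3% of the DMSO sums and 31.7% to 32.5% of the BCT sums. FPKM holds no read counts. Ratios between low values gave relative depths of 0.878 to 1.13 over the 6 samples. BCT replicate 1 lay closer to the DMSO samples than BCT replicates 2 and 3 did, with a mean correlation to DMSO across genes of 0.893 against 0.853 and 0.854. The luminal prostate markers KLK2, TMPRSS2, HOXB13, FOXA1, KRT8, KRT18, EPCAM and CDH1 averaged at least 4.22 FPKM in both groups and KLK3 8.73 FPKM with DMSO and 1.05 with BCT, while group means of the leukocyte, endothelial and fibroblast markers PTPRC, CD3E, PECAM1, VWF and COL3A1 were at most 0.098 FPKM. COL1A1, a fibroblast marker, rose from 1.43 to 5.83 FPKM, and its part in the subunit values was not tested. In such bulk samples, fewer cells in a given state and less RNA per cell cannot be told apart.

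Fold changes were tested on log2(FPKM + 0.1) with limma over all 12729 genes that averaged 1 FPKM or more, and a gene was called where it passed both a log2 fold change of 0.85 in either direction and a Benjamini-Hochberg FDR of 0.05. The words rose and fell are kept for called genes. Of the 33 subunit genes, 32 passed the filter. Of these, 4 were called, or 12.5%, against 31.6% of all genes tested. CD3EAP and POLR3K fell, where 17.8% of all genes were called lower, and POLR3C and ZNRD1 rose, where 13.9% were called higher. The FDR alone was passed by 26 subunit genes (13 lower and 13 higher), or 81.25%, against 82.1% of all genes (42.8% lower and 39.3% higher). The groups were apart in 28 of the 32 subunit genes, with BCT below in 16 and above in 12, and in 85.3% of all genes, with BCT below in 44.3% and above in 41%. The share of lower genes among all called genes depended on the scaling, at 56.2% as deposited and 10.6% where every sample was set to the same FPKM sum. The median log2 fold change was -0.11 over the subunit genes and -0.04 over all genes, and the median size of the change was 0.41 against 0.58. The shares of subunit genes called and past the FDR were thus at or under those of all genes, and the description below turns on which subunits moved and in which enzyme.

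**Figure D1:**
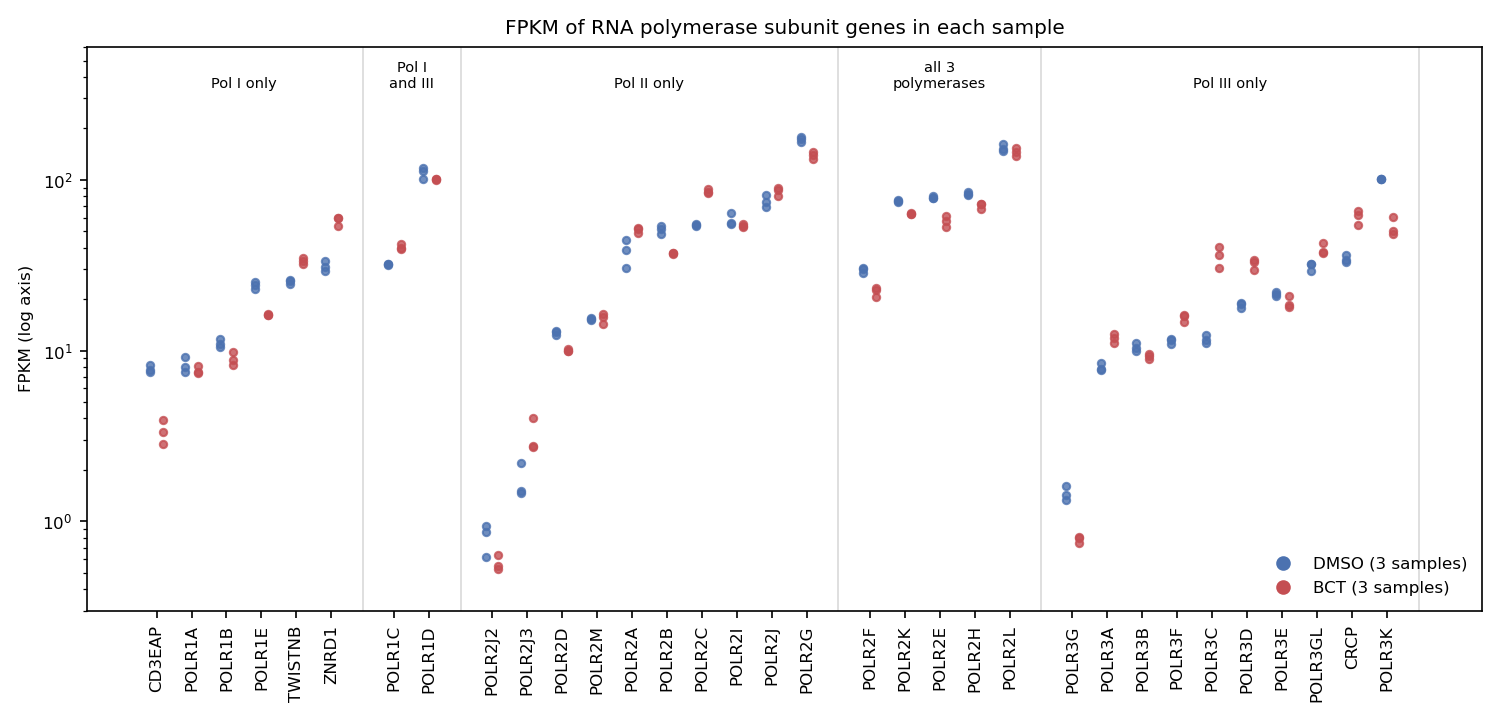
FPKM on a log axis of each of the 33 subunit genes in every sample, DMSO on the left of each name and BCT on the right, arranged by the enzyme that holds the subunit and by the DMSO mean. POLR2G and POLR2L had the highest levels and POLR2J2 and POLR3G the lowest, and the BCT points of POLR3C lie far above those of DMSO while those of CD3EAP and POLR3K lie below.

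Subunits found in Pol II alone spread less in their changes than those of Pol I alone or Pol III alone, whose spreads were close. Log2 fold changes of the 10 subunits found in Pol III alone ran from -0.95 to 1.60, with a standard deviation of 0.78. They include POLR3G at -0.81, which passed the filter only through its DMSO samples. All 10 had BCT samples clear of the DMSO samples (6 above, 4 below). As 85.3% of all genes were apart, this count is not read as a difference between the enzymes. POLR3E was only just clear, at 20.961 FPKM in BCT replicate 1 against 20.989 in DMSO replicate 3. The 6 subunits of Pol I alone ran from -1.20 to 0.88 with a standard deviation of 0.73. The 9 tested subunits of Pol II alone stayed between -0.46 and 0.85 with a standard deviation of 0.46. Of these 0 were called, against 31.6% of all genes, but POLR2J3 at 0.849 lay just short of the threshold. It was called with median ratio scaling (0.885) and quantile normalization (0.888), but not after the GC and length correction (0.820). The 5 subunits common to all 3 enzymes lay between -0.47 and -0.07 with a standard deviation of 0.16. Over all genes tested the standard deviation was 0.9985. The medians were -0.20 for Pol I, 0.01 for Pol II, 0.39 for Pol III and -0.24 for the common subunits, and with equal FPKM sums, where the median of all genes was 0.72, they were 0.56, 0.77, 1.16 and 0.52 in the same order. With quantile normalization the median of the common subunits was -0.08, and after the GC and length correction that of Pol II was 0.26. Equal FPKM sums turned 15 negative subunit values positive, up to 0.69, so that all 15 stayed below the median gene. These are descriptions of small lists, with no test between the enzymes.

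**Figure D2:**
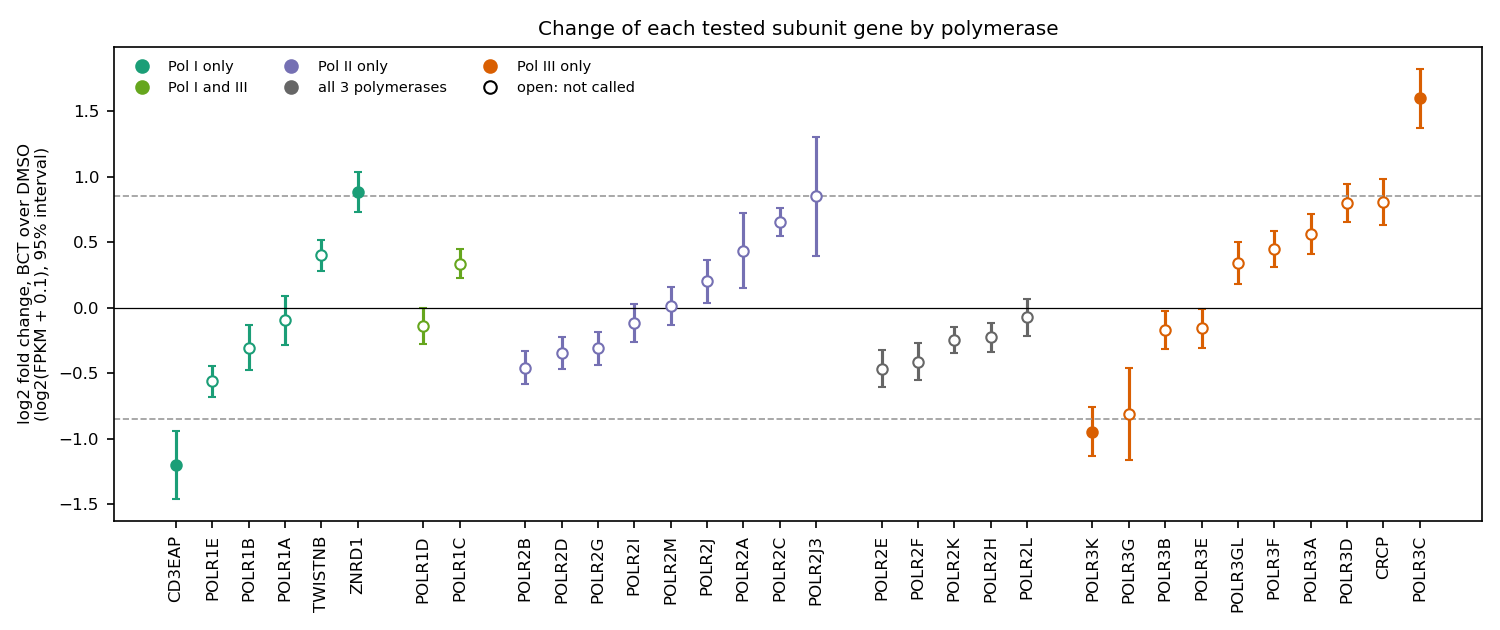
Log2 fold change of BCT over DMSO on log2(FPKM + 0.1) for each of the 32 tested subunit genes, with its 95% interval from limma, colored by enzyme and filled where called; dashed lines mark a log2 fold change of 0.85 in either direction. Pol III subunits span the widest range, from -0.95 for POLR3K to 1.60 for POLR3C, and the 5 common subunits sit together between -0.47 and -0.07.

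The catalytic pairs came first in the comparison. POLR2A, the largest subunit of Pol II, which carries the C-terminal repeat domain, was listed at 30.3, 44.4 and 39.0 FPKM in the DMSO samples against 48.7, 51.9 and 51.4 FPKM in the BCT samples. Its log2 fold change was 0.44 (SE 0.12, adjusted p = 0.010 from limma), short of a call. The lowest DMSO value was that of replicate 1, without which it was 0.28, and with equal FPKM sums it was 1.20 and called. Its partner POLR2B was lower, from 51.8, 53.9 and 48.0 to 36.9, 37.1 and 37.4 FPKM, a log2 fold change of -0.46 (adjusted p = 6.8e-05). The groups did not overlap in either gene, but with equal FPKM sums POLR2B was at 0.31, as POLR1B was at 0.46 and POLR3B at 0.59. In Pol III the largest subunit POLR3A was again the higher one, at 7.97 ± 0.390 FPKM with DMSO and 11.8 ± 0.703 with BCT (SD, n = 3 each; log2 fold change 0.56), while POLR3B was at 10.4 ± 0.625 and 9.26 ± 0.321 FPKM (log2 fold change -0.17). In Pol I, POLR1A overlapped between the groups, at 8.20 ± 0.813 and 7.65 ± 0.367 FPKM (log2 fold change -0.10, 95% interval -0.28 to 0.09), and POLR1B was at 11.04 ± 0.571 and 8.93 ± 0.761 FPKM (log2 fold change -0.30). With DMSO, the largest subunit of Pol II was thus listed at 37.9 FPKM on average and those of Pol I and Pol III near 8.

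The assembly platform of Pol I and Pol III is made of POLR1C and POLR1D, and that of Pol II of POLR2C and POLR2J. POLR1C was listed at 32.0, 32.2 and 31.6 FPKM in the DMSO samples against 39.8, 42.1 and 39.1 in the BCT samples (log2 fold change 0.34), and POLR1D at 112.9, 101.6 and 117.1 against 99.2, 100.5 and 100.8 FPKM, a difference of -0.14 that missed the FDR (adjusted p = 0.059 from limma). POLR2C stood out more, from 54.5, 54.0 and 54.9 to 83.7, 88.9 and 84.4 FPKM. The log2 fold change of 0.65 (SE 0.05, adjusted p = 3.8e-06) had one of the smallest errors of the set but lay below the fold threshold. POLR2J was at 74.97 ± 6.02 with DMSO and 86.0 ± 4.53 FPKM with BCT, with overlapping groups.

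The 5 subunits that all 3 enzymes share, POLR2E, POLR2F, POLR2H, POLR2K and POLR2L, are small proteins of each core enzyme. POLR2E was listed at 78.5, 77.9 and 80.5 FPKM in the DMSO samples against 61.4, 57.7 and 52.7 in the BCT samples (log2 fold change -0.47, adjusted p = 1.4e-04 from limma). POLR2F was at 29.9, 28.4 and 30.3 against 23.4, 22.5 and 20.7 FPKM (-0.41). POLR2K, which binds zinc, was at 75.2 ± 1.24 and 63.5 ± 0.354 FPKM (-0.24) and POLR2H at 82.7 ± 1.73 and 70.6 ± 2.53 FPKM (-0.23). In these 4 genes every BCT sample lay below every DMSO sample, as in 44.3% of all genes tested. With 85.3% of all genes apart in either direction, this count is not read as a trait of the common subunits. POLR2L, at 153.6 ± 8.23 and 145.8 ± 7.87 FPKM, overlapped between the groups (adjusted p = 0.28). None of the 5 was called, against 31.6% of all genes. Rescaled to equal FPKM sums all 5 were positive, from 0.30 to 0.69, below the 0.72 of the median gene under that scaling.

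The zinc-ribbon subunits went in opposite directions in Pol I and Pol III. ZNRD1 of Pol I, POLR2I of Pol II and POLR3K of Pol III are related proteins that take part in cleavage of the nascent RNA and, in Pol III, in termination. ZNRD1 was listed at 30.7, 29.4 and 33.3 FPKM in the DMSO samples against 53.5, 59.4 and 59.6 in the BCT samples. It rose by a log2 fold change of 0.88 (SE 0.07, adjusted p = 5.2e-06 from limma), just over the fold threshold, and at 0.84 it was not called without DMSO replicate 2. POLR3K moved the opposite way, from 101.5, 100.8 and 101.1 to 60.2, 49.8 and 48.1 FPKM, a fold change of 0.521 and a log2 fold change of -0.95 (SE 0.08, adjusted p = 1.1e-05). All 3 BCT samples were clear of the DMSO samples in both genes. POLR2I was at 58.3 ± 4.60 and 53.7 ± 1.13 FPKM and missed the FDR (log2 fold change -0.12, 95% interval -0.26 to 0.03). It shares 19.1% of its exon bases with TBCB, which fell from 125.5 to 63.0 FPKM. A larger part, 69.0%, is shared with an unnamed annotated locus on the opposite strand, for which no FPKM value was matched. The part of either in the POLR2I value was not tested. With quantile normalization POLR3K was at -0.79 and lost its call.

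The stalk of Pol II is the pair POLR2D and POLR2G, CRCP is part of that of Pol III, and TWISTNB of that of Pol I. CRCP was listed at 36.3, 33.2 and 34.1 FPKM in the DMSO samples against 54.2, 65.9 and 62.0 in the BCT samples. The log2 fold change of 0.81 (SE 0.08, adjusted p = 1.8e-05) missed the fold threshold, and it was called at 0.89 without BCT replicate 1. POLR2D was at 12.7 ± 0.399 and 10.0 ± 0.165 FPKM (log2 fold change -0.35) and POLR2G, the highest of all the subunits with DMSO, at 172.3 ± 6.46 and 138.9 ± 6.29 FPKM (-0.31), and with equal FPKM sums these were at 0.42 and 0.46. With quantile normalization POLR2D was at -0.36 and POLR2G at 0.0052. TWISTNB was higher with BCT, at 33.5 ± 1.42 against 25.4 ± 0.684 FPKM (log2 fold change 0.40), below the fold threshold.

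Of the subunits that resemble TFIIF, CD3EAP and POLR1E form a pair on Pol I and POLR3D and POLR3E on Pol III. CD3EAP had the largest fall of the set. It was listed at 7.70, 8.26 and 7.53 FPKM in the DMSO samples against 3.93, 3.35 and 2.84 in the BCT samples, a log2 fold change of -1.20 (SE 0.11, 95% interval -1.46 to -0.94, adjusted p = 1.7e-05 from limma). POLR1E was also lower, at 24.0 ± 1.09 and 16.2 ± 0.111 FPKM (log2 fold change -0.56, and 0.20 with equal FPKM sums), without a call. The Pol III pair did not follow. POLR3D was listed at 17.8, 19.1 and 18.6 FPKM in the DMSO samples against 29.7, 34.0 and 33.1 in the BCT samples (log2 fold change 0.80, called at 0.86 without BCT replicate 1), and POLR3E at 21.3, 21.9 and 21.0 against 21.0, 18.6 and 18.1 FPKM (-0.16, adjusted p = 0.0505, which missed the FDR). CD3EAP shares 49.8% of its exon bases with ERCC1 on the opposite strand, a DNA repair gene listed at 29.4 FPKM in the DMSO samples against 19.0 in the BCT samples, and the kit does not mark strand. The part of ERCC1 reads in the CD3EAP value was not tested.

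The subunits that resemble TFIIE are POLR3C, POLR3F and either POLR3G or POLR3GL, which together help Pol III to initiate. POLR3C rose more than any other subunit. It was listed at 11.6, 12.4 and 11.01 FPKM in the DMSO samples against 30.6, 40.2 and 36.2 in the BCT samples, a fold change of 3.06 and a log2 fold change of 1.60 (SE 0.10, 95% interval 1.37 to 1.83, adjusted p = 2.0e-06 from limma). The lowest BCT sample, replicate 1, was still far above the highest DMSO sample. POLR3F was at 11.4 ± 0.403 and 15.5 ± 0.815 FPKM (log2 fold change 0.44), short of a call. POLR3G and POLR3GL are alternative forms of the same subunit, of which POLR3G is the form known from dividing stem and tumor cells and POLR3GL the form of most differentiated tissue. In 22RV1 cells POLR3GL was the main form at 32.2, 29.2 and 31.9 FPKM with DMSO, against 1.34, 1.61 and 1.42 for POLR3G. With BCT, POLR3GL was at 37.5, 42.9 and 37.9 (log2 fold change 0.34) and POLR3G at 0.806, 0.801 and 0.745 (-0.81, adjusted p = 0.0010), neither of them called. POLR3G passed the filter of 1 FPKM on average only through its DMSO samples. That choice favors a lower BCT value, so its p-value is not read as support. POLR3C and POLR3GL are annotated with the same deposited locus on chromosome 1, from 144146811 to 146467744, which holds 35 symbols, so the deposited positions are those of loci and not of single genes.

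The FPKM ratio of partner subunits within a sample is not altered by multiplying that sample by 1 factor, as equal FPKM sums do, but quantile normalization can alter it. POLR3G to POLR3GL was the ratio set for a test, while the other ratios were picked with their values in view and are given without one. The FPKM ratio of POLR3G to POLR3GL was 0.047 ± 0.007 with DMSO and 0.0199 ± 0.00145 with BCT (SD, n = 3 each). On the log2 scale the difference was -1.15, lower in 3 of 3 BCT samples, with an exact two-sided permutation p of 0.1, the smallest that 3 samples against 3 can give. POLR3G entered the tested genes only through its DMSO samples, and this ratio carries that limit too. POLR3C to POLR3F, near 1 with DMSO at 1.02 ± 0.0512, was 2.29 ± 0.200 with BCT. POLR2A to POLR2B went from 0.740 ± 0.135 to 1.36 ± 0.0412 and POLR3A to POLR3B from 0.764 ± 0.0182 to 1.28 ± 0.108. Over the 10 ratios, BCT samples lay above all DMSO samples in 7 and below in 2. The side depends on which partner is written first. Of all single genes tested, 85.3% had groups apart, and the share for ratios of other gene pairs was not computed. POLR2D to POLR2G was the only one of the 10 that overlapped, at 0.074 ± 0.00446 and 0.0721 ± 0.00259.

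**Figure D3:**
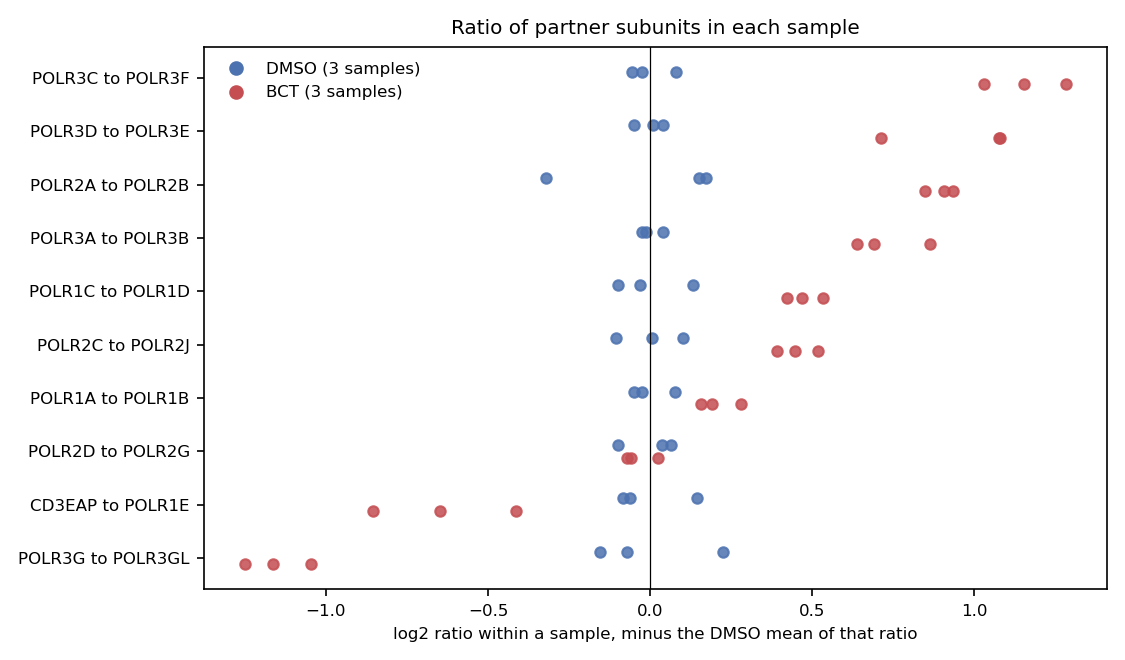
Log2 ratio of 2 partner subunits within each sample (with 0.1 added to each FPKM), shown as the difference from the DMSO mean of that ratio, for 10 pairs. On average the BCT points lie furthest to the left for POLR3G to POLR3GL, at -1.15, and furthest to the right for POLR3C to POLR3F, at 1.15, while POLR2D to POLR2G overlaps.

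The remaining Pol II genes were POLR2M and the copies of POLR2J. POLR2M, whose product binds Pol II and blocks initiation factors, was at 15.3 ± 0.242 and 15.4 ± 1.12 FPKM (log2 fold change 0.01, 95% interval -0.14 to 0.16). POLR2J3 was listed at 1.497, 2.18 and 1.46 FPKM in the DMSO samples against 2.71, 4.03 and 2.76 in the BCT samples, and its log2 fold change of 0.85 (0.849 before rounding, adjusted p = 0.0037 from limma) lay just short of the fold threshold. POLR2J2 was at 0.621 to 0.940 FPKM with DMSO and 0.524 to 0.631 with BCT and was not tested. Both are close copies of POLR2J on chromosome 7, so how reads were split among the 3 genes is uncertain. Next to the threshold from within, ZNRD1 was at 0.88, and next from outside after POLR2J3 were POLR3G at -0.81, CRCP at 0.81 and POLR3D at 0.80.

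BCT replicate 1 was the BCT sample nearest to the DMSO mean in 23 of the 32 tested subunit genes, or 71.9%, against 68.6% of all genes tested, and in all 4 called ones. Without it, POLR3C was at 1.70, CD3EAP at -1.31, POLR3K at -1.05 and ZNRD1 at 0.93, and POLR2J3, CRCP and POLR3D were called as well. The called falls depended on the scaling. With median ratio scaling CD3EAP was at -1.16 and POLR3K at -0.91, both called lower. With equal FPKM sums CD3EAP was at -0.45 and POLR3K at -0.18, neither of them called, while POLR3C was at 2.36 and ZNRD1 at 1.65 and both kept their calls.

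In the GENCODE annotation of GRCh37/hg19, POLR3C lies on chromosome 1 from 145590666 to 145611060 (minus strand), ZNRD1 on chromosome 6 from 30026676 to 30032686 (plus strand), CD3EAP on chromosome 19 from 45909902 to 45913995 (plus strand) and POLR3K on chromosome 16 from 96407 to 103608 (minus strand). The deposited table places ZNRD1 on an alternative haplotype of chromosome 6. Exons of 25 of the 33 subunit genes overlap those of another annotated gene, in 8 of them over at least 20% of their exon bases, ZNRD1 among them at 24.5%. Promoters of the 4 called genes are shown because they carry the calls of the set and because POLR3C and POLR3K each share their promoter region with a neighbor (given in the closing section). They are RefSeq sequences on GRCh38.p14, 250 bases before to 50 bases after the start, written along the gene's strand in lower case, with the E-box CACGTG, bound by MYC and related factors, in capitals. CD3EAP is from chr19:45406394-45406693 (plus strand), POLR3C from chr1:145823950-145824249 (plus strand in this build), POLR3K from chr16:53559-53858 (minus strand) and ZNRD1 from chr6:30061015-30061314 (plus strand).
CD3EAP: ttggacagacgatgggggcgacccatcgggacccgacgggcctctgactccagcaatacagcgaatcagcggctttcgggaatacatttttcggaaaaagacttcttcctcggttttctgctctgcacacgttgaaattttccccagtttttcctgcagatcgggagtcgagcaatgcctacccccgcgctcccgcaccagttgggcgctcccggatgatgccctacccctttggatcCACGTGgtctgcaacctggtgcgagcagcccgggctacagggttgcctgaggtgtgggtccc
POLR3C: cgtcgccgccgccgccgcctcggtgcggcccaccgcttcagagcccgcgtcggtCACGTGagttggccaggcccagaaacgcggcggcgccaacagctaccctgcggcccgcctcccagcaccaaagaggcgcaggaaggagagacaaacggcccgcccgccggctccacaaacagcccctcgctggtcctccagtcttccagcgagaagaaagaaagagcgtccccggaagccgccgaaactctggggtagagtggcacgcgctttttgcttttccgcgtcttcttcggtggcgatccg
POLR3K: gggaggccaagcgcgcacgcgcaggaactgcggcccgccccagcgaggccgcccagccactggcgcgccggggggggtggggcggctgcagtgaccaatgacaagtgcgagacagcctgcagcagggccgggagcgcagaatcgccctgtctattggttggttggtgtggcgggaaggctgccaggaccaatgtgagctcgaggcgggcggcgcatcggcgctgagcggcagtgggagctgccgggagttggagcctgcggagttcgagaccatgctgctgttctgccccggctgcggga
ZNRD1: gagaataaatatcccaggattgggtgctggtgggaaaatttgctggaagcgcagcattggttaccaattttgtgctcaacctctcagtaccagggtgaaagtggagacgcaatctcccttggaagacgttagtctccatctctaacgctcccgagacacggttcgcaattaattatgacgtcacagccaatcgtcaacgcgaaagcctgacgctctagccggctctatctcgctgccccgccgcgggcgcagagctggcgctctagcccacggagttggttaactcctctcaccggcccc
The E-box, a palindrome and so the same on both strands, starts 12 bases before the start of CD3EAP and 196 bases before that of POLR3C, a gene that fell and a gene that rose. Of the 24 subunit promoters found in the RefSeq table, 4 held it (also POLR3A and POLR3E), or 16.7%, against 7.43% of 27305 promoters. The ETS motif CCGGAAGT, searched on both strands, was in 4 of the 24 (POLR1C, POLR2C, POLR2F and POLR3A), against 4.44% of all promoters. TATAAA was in 1 of 24, POLR2M, against 11.95%. These matches are descriptions of the letters and not of binding.

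Genes that work with the polymerases were read from 7 lists written from general knowledge, and their counts are set against the 13.9% of all genes that were called higher and the 17.8% called lower. Of 8 Pol I initiation and termination factors, 1 rose and 1 fell, with a median log2 fold change of 0.15. RRN3, which brings Pol I to the ribosomal DNA promoter, rose from 20.7, 21.2 and 19.5 to 45.1, 51.2 and 52.3 FPKM (log2 fold change 1.27, adjusted p = 1.3e-06 from limma). PTRF, described as a release factor of Pol I and as a component of caveolae, fell from 2.46 ± 0.207 to 1.13 ± 0.113 FPKM. Of 18 Pol II general initiation factors, 2 rose and 0 fell, with a median of 0.55: TBP, the TATA-binding protein used by all 3 enzymes, went from 14.1 ± 0.376 to 27.9 ± 2.14 FPKM and CDK7, the kinase of TFIIH, from 24.8 ± 1.87 to 46.0 ± 4.64 FPKM. Of 21 pausing and elongation factors, 4 rose and 1 fell, with a median of 0.40. SUPT6H (1.25) and SUPT5H (0.99), elongation factors that travel with Pol II, rose, and ELL2, a subunit of the super elongation complex, fell (-1.06). Of 19 Pol III factors, 3 rose and 1 fell, with a median of 0.11. BRF2, the initiation factor of Pol III at genes such as U6, rose from 11.7, 10.0 and 11.1 to 23.6, 28.7 and 27.1 FPKM (log2 fold change 1.27), ZNF143 rose by 1.01 on the log2 scale, and POU2F1, which binds snRNA gene promoters, fell by 1.15. Over all 7 lists 15 of 89 tested genes rose and 6 fell, or 23.6% called against 31.6% of all genes, and with equal FPKM sums 52 were called higher and 0 lower.

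Among the 7 lists, assembly and import factors had the largest share of called members, a ranking made once all lists were counted. It was not tested. Polymerases are assembled in the cytoplasm with the help of HSP90 and its R2TP partner complex before their import into the nucleus. Of 14 such factors, 5 rose and 2 fell, or 50% called against 31.6% of all genes, with a median log2 fold change of 0.23. GPN2, a GTPase needed for assembly, rose from 18.1, 18.2 and 18.3 to 65.0, 77.7 and 74.3 FPKM (log2 fold change 1.98, standard error 0.07, adjusted p = 3.3e-07 from limma). SLC7A6OS, the human counterpart of the Pol II import factor Iwr1, rose from 8.57, 8.56 and 9.20 to 30.6, 36.7 and 34.4 FPKM (1.93), and PDRG1, of the prefoldin-like part of the R2TP complex, from 33.4 ± 1.57 to 86.5 ± 7.87 FPKM (1.37). Genes named from a list had to have groups that did not overlap, so the separation in these 3 was fixed by that choice. The 2 that fell, URI1 at -1.24 and GPN3, a relative of GPN2, at -0.93, are outside the rule for named genes and were added with their values in view. So were RUVBL1 (0.02) and RUVBL2 (-0.04), the ATPases of R2TP, in which the groups overlapped.

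Most products of Pol III lack the poly(A) tail by which the library kit captures RNA. Of 18 Pol III transcripts searched, 11 were listed, 7 of them at 0 in every sample, and 4 were tested. RMRP, the RNA of a ribonuclease that processes ribosomal RNA, was listed at 33.2, 33.2 and 28.5 FPKM in the DMSO samples against 12.4, 10.0 and 13.4 in the BCT samples, and fell by 1.40 on the log2 scale (adjusted p = 6.2e-06 from limma). RPPH1, the RNA of ribonuclease P, was at 8.98 ± 1.69 and 5.16 ± 0.745 FPKM (-0.78) and BCYRN1 at 57.3 ± 3.71 and 38.2 ± 2.28 FPKM (-0.58). Both passed the FDR alone, as did 42.8% of all genes in the lower direction. Of the 4 tested, 1 was called lower, against 17.8% of all genes. RNU6ATAC was listed at 17.7, 0 and 35.7 FPKM in the DMSO samples against 0, 10.3 and 16.2 in the BCT samples and gives no readable change.

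**Figure D4:**
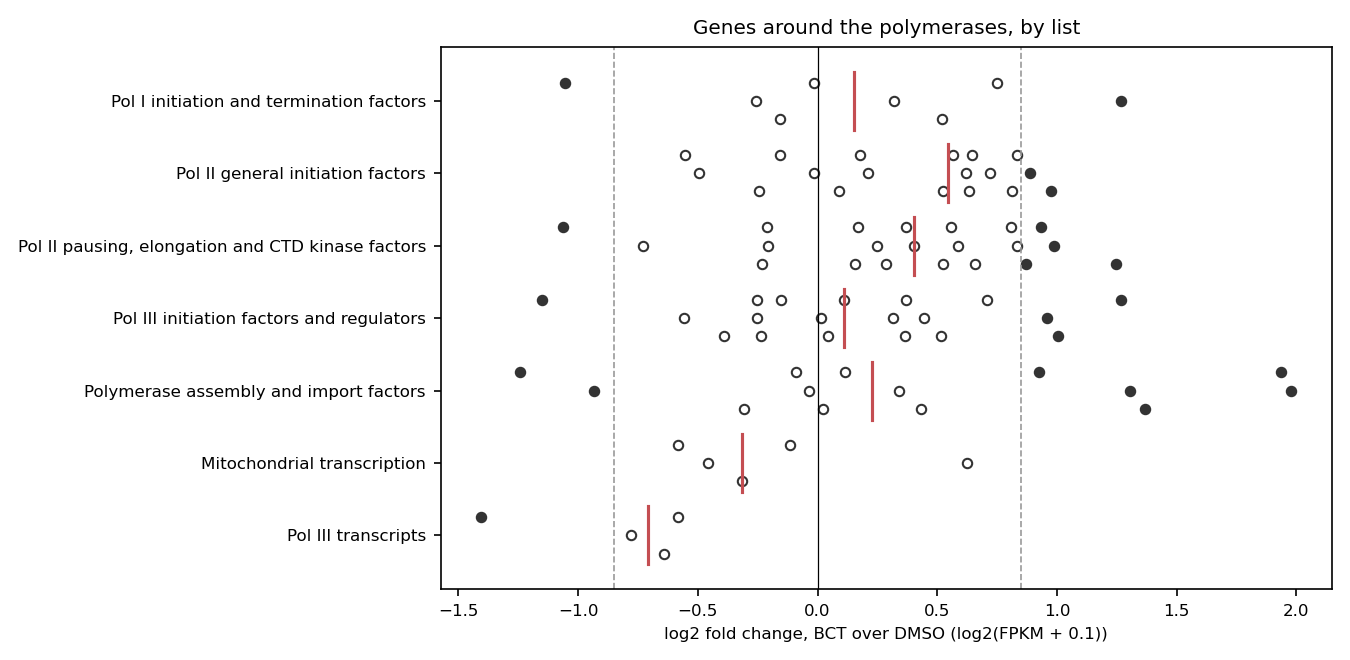
Log2 fold change of BCT over DMSO on log2(FPKM + 0.1) for each tested gene of 7 lists, filled where called; red bars are list medians and dashed lines mark a log2 fold change of 0.85 in either direction. Assembly and import factors reach from -1.24 for URI1 to 1.98 for GPN2. The points of the 4 Pol III transcripts lie below 0, but that of RNU6ATAC gives no readable change.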

How the data were processed

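RNA of 3 DMSO and 3 BCT samples of 22RV1 cells (BCT at 10 nM, harvested at 24 h) was sequenced by the authors, trimmed with Trimmomatic, aligned to hg19/GRCh37 with HISAT2 and assembled with StringTie, and the authors deposited 1 FPKM value per gene and sample. The submitters' processing notes give Trimmomatic 0.38 and also name HTSeq. The gene annotation and the gene-level test are not given in the sources used here. Groups and replicate numbers were taken from the sample titles.

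From the deposited FPKM values, log2(FPKM + 0.1) of the 12729 genes averaging 1 FPKM or more was fitted by limma 3.58.1 (R 4.3.3, moderated variances with a trend on the mean, Benjamini-Hochberg adjustment over all of them). The values were not rescaled. FPKM carries no counts, so no count test or counting interval was used. The subunit genes, the lists and the rule for named genes (every subunit, and per list the 3 called genes with the largest change whose groups did not overlap) were chosen with earlier results of these data known. Of the 34 subunit genes by the rule, 1 is not reported here and enters no count of subunits. For the Pol III transcripts, those averaging 1 FPKM or more were named. RUVBL1, RUVBL2, URI1 and GPN3 fall outside this rule and were added after their values were seen. Symbols were matched to GENCODE, through older symbols where needed, for gene positions, exon overlap, GC content and length (97.4% of the tested genes and all 32 tested subunits). Neighbors are protein-coding genes on the opposite strand whose start lies within 1000 bases, on either side of the start of the subunit gene. Alternatives covered the pseudocount, the filter, 4 scalings, the FDR, the variance model, the replicate block and each sample left out, and a loess correction (span 0.5) for GC content and length was added after the data were examined.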

Additional observations from a re-analysis of the deposited data

How the results depend on the processing

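Of 638 values of the 32 tested subunit genes under the alternatives, 555 kept their direction and side of the thresholds, 6 lost a call, 33 gained one and 44 changed sign, none of the 4 called genes among the last. The scalings mattered most, and FPKM alone cannot settle which is right. Equal FPKM sums put the median over all genes at 0.72 (as deposited, -0.04), with 668 lower and 5609 higher genes, 0 and 13 subunit genes and 0 and 52 list genes, against 2263, 1764, 2, 2, 6 and 15 as deposited. Equal sums without MIR6087 (median 0.34) gave 1208 and 3369 genes, 0 and 7 subunit genes and 2 and 34 list genes. Of called genes, 56.2% were lower as deposited, 10.6% and 26.4% with those scalings. Quantile normalization and the GC and length correction, with or without the block, each called 4 subunit genes higher, and 1 and 3 lower. Without a filter 2657 genes were called higher, and 1150 where genes had to average 5 FPKM. Leaving out 1 sample gave 2 to 3 subunit genes lower and 2 to 5 higher, the 5 without BCT replicate 1, 2146 to 2488 genes lower and 1684 to 1932 higher, and a POLR3G to POLR3GL difference of -1.23 to -1.04. That difference was -0.79 with a pseudocount of 1. The call of POLR3K was also lost under quantile normalization and that of ZNRD1 without DMSO replicate 2.

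Equal FPKM sums reversed POLR1A (0.66), POLR1B (0.46), POLR1E (0.20), POLR1D (0.63), POLR2B (0.31), POLR2D (0.42), POLR2G (0.46), POLR2I (0.65), POLR2E (0.30), POLR2F (0.35), POLR2H (0.54), POLR2K (0.52), POLR2L (0.69), POLR3B (0.59) and POLR3E (0.61). Without MIR6087 they reversed POLR1A (0.29), POLR1B (0.078), POLR1D (0.25), POLR2D (0.038), POLR2G (0.076), POLR2I (0.27), POLR2H (0.16), POLR2K (0.14), POLR2L (0.31), POLR3B (0.21) and POLR3E (0.23). Quantile normalization reversed POLR1D (0.054), POLR2G (0.0052), POLR2I (0.023), POLR2M (-0.011) and POLR2L (0.24), and the GC and length correction, with or without the block, POLR2I (0.26), POLR2M (-0.11), POLR2H (0.0081), POLR2L (0.28) and POLR3E (0.092). POLR2M, at 0.01 with all samples, ran from -0.035 to 0.068 with 1 sample left out (-0.035 without BCT replicate 3, -0.0017 without BCT replicate 2, -0.0015 without DMSO replicate 3).

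Same-numbered samples correlated at 0.116, 0.033 and 0.034 in their deviations from the group means. Their mean was 0.061, against -0.031 for other numbers, and 4 of 6 samples correlated best with their own number. These values do not settle whether the numbers mark pairs, and the main fit did not treat them as pairs. The replicate block gave 2266 lower and 1767 higher calls, with 2 and 2 subunit genes (all 4 of those called without it), and the POLR3G to POLR3GL difference of -1.15 had an exact sign-flip p of 0.25, the smallest for 3 pairs.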

Other observations

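Several subunit genes start near the start of a neighbor on the opposite strand. Of 13 subunit genes with a tested protein-coding gene that starts within 1000 bases on the opposite strand, 10 had a log2 fold change of the same sign as the neighbor (76.9%), against 54.5% of 957 other such pairs of tested genes. These are signs as deposited, and the count was not repeated under other scalings. It includes POLR2I (-0.12) and POLR2L (-0.07), which missed the FDR and were positive with quantile normalization. The starts of TBCB, LRRC73 and DZANK1 lie inside POLR2I, POLR1C and POLR3F, so they are not shared promoters of genes that point apart. Some neighbors also share exon bases with the subunit gene: TBCB 19.1% of POLR2I, DZANK1 5.98% of POLR3F and LRRC73 2.54% of POLR1C. The signs agreed for POLR2I and POLR3F but not for POLR1C. The kit does not mark strand, and the part of shared reads was not tested. The start regions of POLR3C and RNF115, a ubiquitin ligase gene, overlap by 42 bases, and RNF115 rose from 23.3 to 47.4 FPKM on average (log2 fold change 1.02, adjusted p = 5.3e-06 from limma), while their exons share 43 bases. POLR3K starts 220 bases from SNRNP25, a gene of the minor spliceosome, which fell from 78.6 to 41.2 FPKM (-0.93), with no shared exon bases. CD3EAP starts 295 bases from PPP1R13L, at 24.8 FPKM with DMSO and 14.4 with BCT (-0.78, not called). The pair that parted most was POLR1D, at -0.14, and LNX2, another ubiquitin ligase gene, which rose from 9.59 to 27.0 FPKM (1.48). What the shared region contributes was not tested.

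The mitochondrial RNA polymerase, a single-subunit enzyme, is encoded by POLRMT, with 27.7, 29.3 and 28.4 FPKM in the DMSO samples against 20.3, 18.9 and 17.6 in the BCT samples. Its log2 fold change was -0.58 (adjusted p = 3.8e-05 from limma), below the fold threshold, and 0 of the 5 tested mitochondrial transcription genes were called, against 31.6% of all genes.

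Across the 32 tested subunit genes, the log2 fold change and the GC content of the longest transcript had a Pearson correlation of -0.12 and a Spearman correlation of -0.11, and the values for log2 length were 0.24 and 0.27. Genes of one library are not independent, and no test was made.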
